A study of Homo sapiens with 9 samples.

Results

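The small proline-rich proteins (SPRR genes) were followed through RNA sequencing of CAL27 cells, an established line of tongue squamous carcinoma cells. The 6 genes described here, SPRR1A, SPRR1B, SPRR2A, SPRR2D, SPRR2E and SPRR3, are members of a family of 12 genes among the 78894 gene identifiers measured. They were chosen with their values in all groups already known, so their levels and differences are given as a description and carry no p-value. Gene symbols were matched to the Ensembl identifiers of the files, and all 12 family members were found.

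The study asks about an enhancer active in squamous cancers of the head and neck, and set CRISPR-edited cells against control cells. All samples are CAL27 cells grown in DMEM with serum and labelled as without treatment: 3 samples of Control, 2 of A2ko, 2 of A8ko and 2 of C9ko. The labels name neither the edited sequence nor the guide, and do not say whether a knockout group is 1 clone or a pool, or whether the Control cells went through an editing step. The level of an edited target could therefore not be checked. The pair of A2ko samples held identical values, as did the A8ko pair, and both files of each pair carry the same library name in their header. Each such pair therefore entered as a single library. The 7 distinct libraries are 3 of Control, 1 of A2ko, 1 of A8ko and 2 of C9ko. A2ko and A8ko have no replicates, and the labels do not say whether the Control or C9ko samples came from separate cultures, so that their spread may be technical and p-values measure only that spread.

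Levels are in TPM, a share of all transcripts of a library that is corrected for gene length. The depth of the libraries is unknown, and mitochondrially encoded transcripts took 23.1% to 26.9% of the TPM in Control and 17.9% to 25.2% in the knockout libraries. All 10 squamous epithelial markers examined, among them KRT5 and TP63, reached 1 TPM. Their summed level was 16670 to 17810 TPM in Control, 6726 in A2ko, 7859 in A8ko and 10260 to 10420 in C9ko. For Control the sum was carried mainly by KRT5 and KRT14. KRT5, KRT14, KRT6A, PKP1 and DSG3 were below the Control range in every knockout library. CDH1 was above that range throughout, at 138 to 177 TPM against 100 to 106. KRT17 was above it for A2ko alone, at 1749 TPM against 1031 to 1243, and below it for A8ko, at 489. EPCAM and SFN were above it for A8ko and C9ko, and below it for A2ko. TP63 was above it for C9ko, and below it for A2ko and A8ko. Of 7 fibroblast markers, 6 leukocyte markers and 4 endothelial markers, 4, 2 and 1 reached 1 TPM in any library. COL3A1 and KDR were listed at 0 in every library, and PTPRC reached at most 0.0232 TPM. The summed leukocyte list, carried by CD68 and CD14, was 42.3 to 50.4 TPM in Control, 59.8 in A2ko, 82.9 in A8ko and 65.4 to 66.8 in C9ko. CD68 and CD14 differed in direction in C9ko. CD68 was at 14.1 and 14.3 TPM there against 27.8 to 32.2 in Control, and CD14 at 52.5 and 50.85 against 14.25 to 17.9. In A8ko CD68 was at 66.3 TPM, and CD14, at 16.3, was within the Control range. The summed endothelial list, carried by CDH5, was 3.51 to 4.55 TPM in Control and 8.63 to 30.1 TPM in the knockout libraries. The fibroblast list summed to 10.99 to 12.3 TPM in Control, 17.8 in A2ko, 10.5 in A8ko and 11.4 to 12.4 in C9ko. Its members differed in direction within A8ko: VIM was at 3.12 TPM there against 0.0810 to 0.225 in Control, and LUM at 0.440 against 2.47 to 2.92. LUM was also lower in C9ko, at 0.773 and 0.679 TPM, while COL1A1 was higher in A2ko, at 13.4 TPM against 5.82 to 6.81. The part of these levels in the results below was not tested.

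SPRR proteins are short, rich in proline, glutamine and lysine, and serve as cross-bridges of the cornified envelope, the protein shell that replaces the plasma membrane of a terminally differentiating squamous cell. Transglutaminases join their ends to other envelope proteins such as involucrin and loricrin. In stratified epithelia SPRR genes are switched on as keratinocytes leave the basal layer, and in oral mucosa and after stress or wounding they are among the abundant envelope precursors. The genes lie side by side in the epidermal differentiation complex of chromosome 1, where the 12 members span 256 kb of GRCh38 and the 6 described here 110 kb.

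In Control cells the family was carried by its SPRR1 pair. SPRR1B (ENSG00000169469, chromosome 1, 153031203 to 153032900, plus strand) stood at 221, 215 and 228 TPM in the 3 Control libraries, a mean of 221 ± 6.81 (SD, n = 3), above the level of 96.7% of the 17100 genes tested. SPRR1A (ENSG00000169474, chromosome 1, 152984081 to 152985814, plus strand) stood at 130.4, 124 and 122 TPM, a mean of 125 ± 4.44 (SD, n = 3), above 93.7% of the tested genes. Together they made up 95.0% to 95.8% of the summed SPRR level of the Control libraries. Transcripts of the SPRR2 class were far scarcer: SPRR2E (ENSG00000203785, 153093135 to 153094526, minus strand) averaged 7.72 ± 1.22 TPM, SPRR2D (ENSG00000163216, 153039732 to 153041120, minus strand) 4.78 ± 0.287 and SPRR2A (ENSG00000241794, 153056120 to 153057512, minus strand) 2.66 ± 0.320 (SD, n = 3 each). SPRR3 (ENSG00000163209, 153001749 to 153003856, plus strand), a marker of differentiated oral and oesophageal epithelium, was the lowest of the 6 at 0.685 ± 0.276 TPM (SD, n = 3). The Control ranges of neighbours in this order, SPRR1B, SPRR1A, SPRR2E, SPRR2D, SPRR2A and SPRR3, did not overlap.

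The other 6 family members, SPRR2B, SPRR2C, SPRR2F, SPRR2G, SPRR4 and SPRR5, did not reach 1 TPM in any library. Their highest value was 0.551 TPM, of SPRR2G in A8ko. None of them entered the tests. All 6 described members passed the minimum of 1 TPM in at least 2 libraries. SPRR3 passed through the A8ko and C9ko libraries alone, where it was high, so its count as changed is in part set by that minimum.

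The upstream sequences of 4 of the 6 members are shown because the genes sit next to each other and were lower together, except for SPRR3. They are the 250 bases before the start site in RefSeq on GRCh38.p14, written 5′ to 3′ on the strand of the gene. SPRR2D and SPRR2E had no entry in the table used. Capitals mark the AP-1 motif TGANTCA, the TATA box TATAAA, the ETS motif AGGAAG and the octamer core ATGCAAA on either strand. AP-1 (dimers of JUN and FOS proteins), ETS-domain factors such as ELF3 and octamer-binding POU factors are known regulators of SPRR promoters.
SPRR1A, chr1:152983831-152984080, plus strand: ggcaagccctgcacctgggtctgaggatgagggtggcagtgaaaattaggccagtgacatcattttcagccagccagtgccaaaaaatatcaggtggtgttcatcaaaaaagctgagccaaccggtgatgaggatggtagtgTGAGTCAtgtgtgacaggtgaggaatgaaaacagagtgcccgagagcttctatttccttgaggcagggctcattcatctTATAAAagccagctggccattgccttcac
SPRR1B, chr1:153030953-153031202, plus strand: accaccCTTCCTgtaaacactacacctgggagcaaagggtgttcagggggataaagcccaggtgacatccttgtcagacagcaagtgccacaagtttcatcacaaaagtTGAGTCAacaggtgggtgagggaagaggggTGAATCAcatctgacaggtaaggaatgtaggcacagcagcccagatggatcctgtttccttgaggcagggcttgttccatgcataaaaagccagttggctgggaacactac
SPRR3, chr1:153001499-153001748, plus strand: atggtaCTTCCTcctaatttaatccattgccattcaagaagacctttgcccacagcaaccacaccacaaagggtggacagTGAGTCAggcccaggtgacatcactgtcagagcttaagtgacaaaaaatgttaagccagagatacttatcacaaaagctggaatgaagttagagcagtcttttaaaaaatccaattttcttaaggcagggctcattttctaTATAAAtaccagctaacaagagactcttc
SPRR2A, chr1:153057513-153057762, minus strand: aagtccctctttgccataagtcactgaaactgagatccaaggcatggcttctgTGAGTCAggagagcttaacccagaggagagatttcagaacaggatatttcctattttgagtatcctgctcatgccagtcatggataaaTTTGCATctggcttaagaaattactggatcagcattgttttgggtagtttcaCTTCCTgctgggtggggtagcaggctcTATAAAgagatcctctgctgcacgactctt

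All 4 of these sequences held TGANTCA, which occurs in 6.59% of the 34943 upstream sequences of the same length in the table. In SPRR1A it began at -108 from the start site, in SPRR2A at -197 and in SPRR3 at -170, while SPRR1B held it at -141 and again at -111. Of the other family members in the table, SPRR2F and SPRR2G held it, and SPRR2B, SPRR4 and SPRR5 did not. TATAAA was found in SPRR1A, SPRR2A and SPRR3 at -29 or -30 and not in SPRR1B; it occurs in 10.8% of all upstream sequences. Only SPRR2A among these 4 held the octamer core, at -109, a motif found in 3.95% of the table, and the same core stood at -107 in SPRR2B and -108 in SPRR2F. AGGAAG was present in SPRR1B and SPRR3 at -244 and in SPRR2A at -57, against 28.7% of the table. The short KLF motif CACCC, left in lower case above, occurred in all 4 sequences and in 54.7% of the table; in SPRR1B a copy shares bases with the AP-1 motif at -111 and another with the ETS motif.

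Beyond these motifs, SPRR1A and SPRR1B share an unbroken run of 18 bases, tttccttgaggcagggct, that begins at -56 and -57. SPRR1A and SPRR3 share a run of 14, aggcagggctcatt, at -48 in both, and SPRR1B and SPRR3 another of 14, gcccaggtgacatc, at -195 and -162. Each of these runs occurs in 2 of the 34943 sequences, the pair named. SPRR3, whose level went the other way from SPRR1A and SPRR1B in A8ko and C9ko, holds the AP-1 motif as they do. It shares a different run of 14 bases with each of them. The run of 18 is not unbroken in SPRR3, which holds its last part, aggcagggct, within the run shared with SPRR1A. A match describes the letters only.

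**Figure D1:**
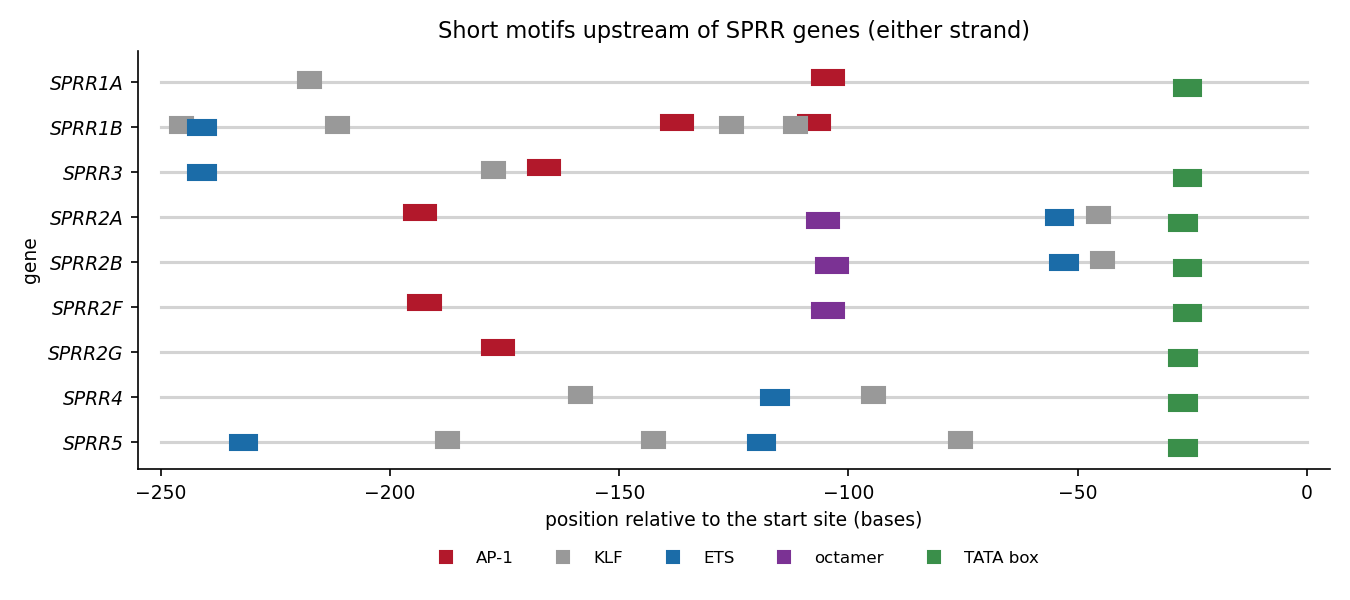
Positions of 5 short motifs (either strand) in the 250 bases before the start site of the 9 SPRR genes in the table; the horizontal axis is the position in bases and each coloured block is 1 match. SPRR1A, SPRR1B, SPRR3 and SPRR2A each carry at least 1 AP-1 match, and SPRR1B has no TATAAA near -30.

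In every knockout group the summed SPRR level was far below Control. The 12 genes summed to 370, 354 and 367 TPM in the Control libraries, to 5.41 for A2ko, 59.3 for A8ko, and 111 and 109 for the C9ko pair. These are 1.49%, 16.3% and 30.3% of the Control mean of 363 ± 8.52 TPM (SD, n = 3). No knockout library came near the Control range, and the spread between the C9ko libraries was small beside their distance from Control. In bulk RNA, fewer cells that express a gene and less of its RNA per cell cannot be told apart.

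Changes are given as differences in log2(TPM + 1), which understate the change of weakly expressed genes. A gene was counted as lower or higher when no library of the group fell within the Control range and the group mean differed from that of Control by 1 log2 unit or more. Of the 6 members, 5 were counted lower in A2ko and 0 higher, where 5.07% of all tested genes were counted (1.53% lower). In A8ko 4 were lower and 1 higher, where 4.73% of the tested genes were counted (2.68% lower and 2.05% higher). In C9ko 4 were again lower and 1 higher, against 5.11% of the tested genes counted (1.78% lower and 3.33% higher). SPRR1A, SPRR1B, SPRR2D and SPRR2E were lower in all 3 groups, as were 0.427% of the tested genes, while 0.152% were higher in all 3 and 0.579% counted the same way in all 3. The 3 comparisons share the Control libraries, and since the members were chosen on these contrasts, nothing is read from the counts. The median difference over the 6 members was -2.62 for A2ko, -1.56 for A8ko and -1.51 for C9ko, and over all tested genes 0.12, 0.09 and 0.11.

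**Figure D2:**
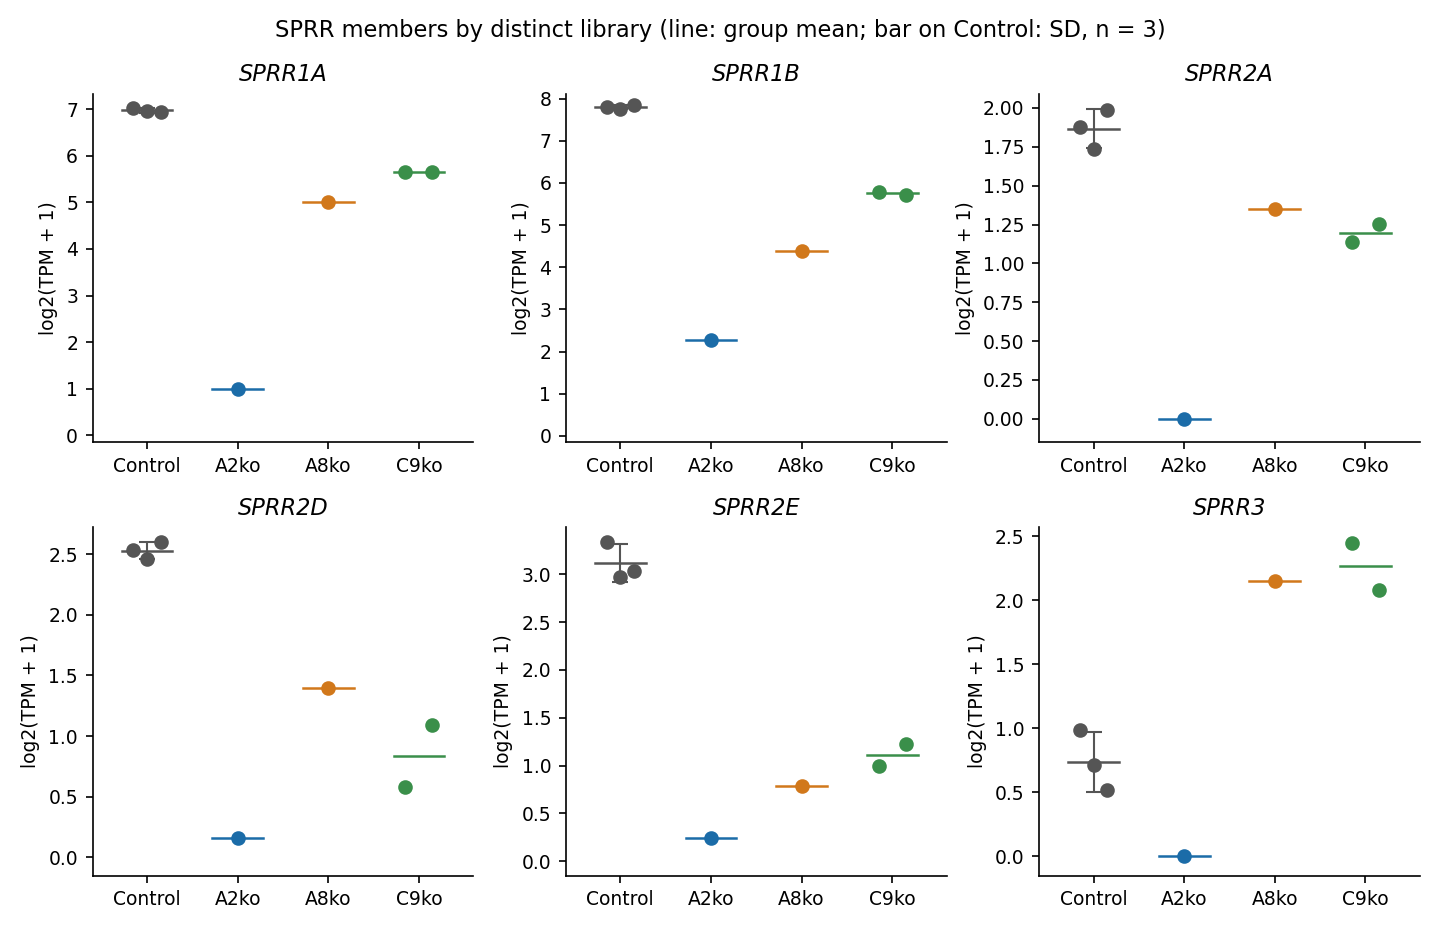
Level of each of the 6 members, as log2(TPM + 1), in every distinct library; points are libraries, lines group means and the bar on Control the SD of 3 libraries. A2ko holds the lowest point of every panel, and SPRR3 is the panel in which A8ko and C9ko lie above Control.

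SPRR1A, a cross-bridging envelope precursor also known to be induced in injured neurons and heart muscle, was lowest in A2ko. It was at 1.003 TPM there against 122 to 130.4 TPM in Control, 31.1 in A8ko, and 49.5 and 49.7 in C9ko. None of the knockout libraries overlapped the Control libraries, and the C9ko pair lay close together. The log2 difference was -5.98 for A2ko, -1.98 for A8ko and -1.32 for C9ko (limma SE 0.06). In A2ko, 1 of the 17100 tested genes had a more negative difference.

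SPRR1B, its closest paralog and the most abundant member in Control, was at 3.83 TPM for A2ko, 19.8 for A8ko, and 53.9 and 51.7 for the C9ko pair, against 215 to 228 TPM in Control. The groups did not overlap, and A8ko again lay between A2ko and C9ko. The log2 difference was -5.52 for A2ko, -3.41 for A8ko and -2.05 for C9ko (SE 0.06). Ordered from the most negative difference in A2ko, SPRR1B ranked 3 of all tested genes, and in A8ko it ranked 12.

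The balance within the SPRR1 pair differed between groups. SPRR1B stood at 1.69, 1.73 and 1.87 times SPRR1A in the Control libraries. In A2ko the ratio was 3.82, in A8ko 0.638, and in C9ko 1.09 and 1.04. All knockout libraries lay outside the Control range, A2ko above it and the others below, so that SPRR1A was the more abundant of the pair in A8ko. The ratio compares TPM, which is per length. The quantification tool is not given, so it is unknown whether the same length of each gene was used in every library. The A2ko ratio rests on a low level of both genes.

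SPRR2E, the most abundant SPRR2 transcript in Control, was at 9.12, 6.86 and 7.18 TPM in the Control libraries. It was at 0.181 TPM for A2ko, 0.724 for A8ko, and 0.999 and 1.34 for the C9ko pair, none of which overlapped Control. The log2 difference was -2.88 for A2ko, -2.33 for A8ko and -2.00 for C9ko (SE 0.16). As a ratio of mean TPM, the Control level was 42.8 times that of A2ko, 10.7 times that of A8ko and 6.61 times that of C9ko.

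SPRR2D was at 4.79, 4.49 and 5.06 TPM in Control. It was at 0.115 TPM for A2ko, 1.63 for A8ko, and 0.496 and 1.13 for the C9ko pair. In contrast to SPRR1A, SPRR1B and SPRR2E, it was lower in both C9ko libraries than in A8ko. The log2 difference was -2.37 for A2ko, -1.13 for A8ko and -1.69 for C9ko (SE 0.18), and the C9ko libraries differed more than 2-fold from each other.

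SPRR2A, which is also known in intestinal and biliary epithelium under stress, was at 2.67, 2.33 and 2.97 TPM in Control. It was listed at 0 in A2ko and at 1.55 TPM in A8ko, and at 1.2004 and 1.38 TPM for the C9ko pair. All knockout libraries were below Control, but the log2 difference reached 1 in A2ko alone (-1.87). It was -0.52 in A8ko and -0.67 in C9ko (SE 0.14).

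The SPRR2 genes are close copies, and no source used here says how shared reads were assigned. In the transcripts of GENCODE release 29 on GRCh38, 32.7% of the 50-base windows of SPRR2A, 26.8% of those of SPRR2D and 23.0% of those of SPRR2E also occurred in another SPRR gene, and SPRR2A shared a run of 193 bases with SPRR2B. For 100-base windows the shares were 20.3%, 4.56% and 12.1%. SPRR1A, whose model in that release holds 270 bases, and SPRR1B shared a run of 74 bases and no 100-base window, and SPRR3 shared no 50-base window. The sum of all 7 SPRR2 genes, which depends less on how reads were divided within the class, was 15.6 ± 1.48 TPM in Control (SD, n = 3), 0.454 for A2ko, 4.54 for A8ko, and 3.09 and 4.26 for the C9ko pair. For this sum A8ko and C9ko lay side by side, whereas the summed SPRR1 pair was at 50.96 TPM in A8ko and at 103.4 and 101.4 in C9ko.

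SPRR3 differed from the others in direction in A8ko and C9ko. It was at 0.978, 0.645 and 0.430 TPM in Control, listed at 0 in A2ko, at 3.43 TPM in A8ko, and at 4.47 and 3.24 in C9ko. A8ko and both C9ko libraries lay above every Control library and A2ko below them. The log2 difference was -0.74 for A2ko, 1.41 for A8ko and 1.53 for C9ko (SE 0.20), and the mean level of C9ko was 5.63 times that of Control. Even so, SPRR3 made up 5.79% of the summed SPRR level in A8ko and 4.02% and 2.96% in C9ko, against 0.117% to 0.265% in Control. Its gene lies between SPRR1A and SPRR1B, both of which were lower in the same libraries.

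**Figure D3:**
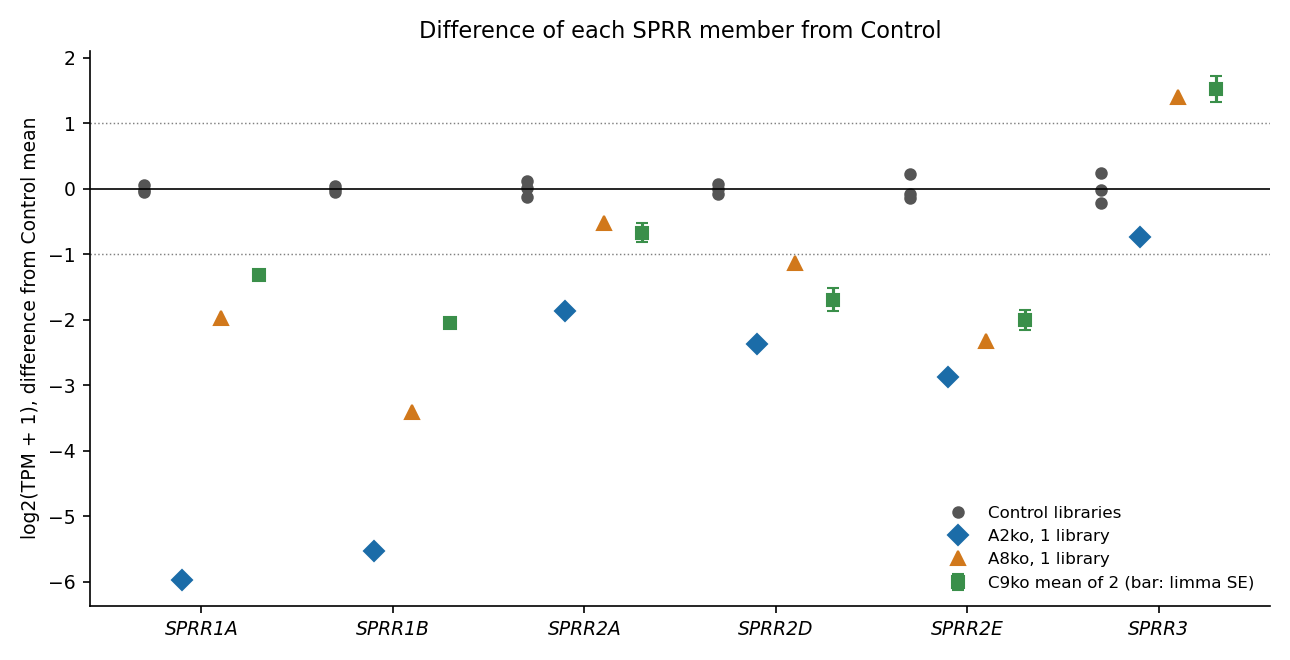
Difference of each member from the Control mean in log2(TPM + 1); grey points are the Control libraries, the diamond is A2ko, the triangle A8ko and the square the C9ko mean with its limma standard error. Dotted lines mark 1 log2 unit; SPRR1A and SPRR1B reach -5.98 and -5.52 in A2ko, and SPRR3 alone is positive, in A8ko and C9ko.

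The members differed in how closely their profiles followed one another. Likeness was measured as the root-mean-square distance between profiles of log2 difference over the 4 distinct knockout libraries, so that a small value means alike. The most similar pairs were SPRR2D and SPRR2E (0.692 log2 units), SPRR2A and SPRR2D (0.837) and SPRR1A and SPRR1B (0.912). SPRR3 was at least 1.92 from any other member. The libraries are shared by all genes, and no test was made of these distances. They were taken with a pseudocount of 1 only, which limits how far a scarce gene can fall.

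Among 11811 other genes, the profile nearest to SPRR1A was that of KRT14, the basal keratin of stratified epithelia, at a distance of 1.1997. KRT14 averaged 3877 ± 375 TPM in Control (SD, n = 3) and was at 313 for A2ko, 867 for A8ko, and 1283 and 1247 for the C9ko pair, the same order of groups as SPRR1A and SPRR1B. Genes named here were picked for likeness over these same libraries, so a shared order of groups follows from that choice. The next genes for SPRR1A were ENSG00000250657 (1.502) and PTN, a secreted growth factor (1.52). For SPRR1B they were ENSG00000250920 (1.00045), PTN (1.06) and KRT14 (1.18). KRT14 and KRT6A also belong to the squamous marker list summed above. Nearest to SPRR2E were KRT6A, a keratin of wounded epithelium (0.473), KRT14 (0.483) and AQP3, a water and glycerol channel of the epidermis (0.560). Nearest to SPRR2D were GJB6, a gap junction protein of epithelia (0.170), CHAC1 (0.347) and THBD (0.474), and to SPRR2A CLCA2 (0.202), FYB1 (0.212) and MIR6777 (0.263). For scarce members a small distance need not mean a like fold change. In A2ko SPRR2D was at 2.41% of its Control mean and GJB6 at 15.8%, while SPRR2A was listed at 0 and CLCA2 kept 15.3%. SPRR3 lay nearest to ADAMTS1 (0.183), KLRC2 (0.188) and CDC42EP1 (0.206), which were all above the Control range in A8ko and C9ko and below it in A2ko. CDC42EP1, for example, averaged 16.03 ± 1.96 TPM in Control (SD, n = 3) and was at 10.4 for A2ko, 44.0 for A8ko, and 52.9 and 54.8 for the C9ko pair.

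The neighbourhood of the cluster was asked about next, with 50 other genes of the epidermal differentiation complex. Most are genes of the uppermost epidermis, such as the late cornified envelope genes, LORICRIN and FLG, and 30 of the 50 did not reach 1 TPM in any library. Of the 19 tested, 1 was counted higher and 1 lower in A2ko, where 3.54% and 1.53% of all genes were, and 0 and 4 in A8ko, beside 2.05% and 2.68% of all genes. C9ko was tested against Control with limma across all genes, which at an adjusted p-value under 0.05 called 29.5% of them, 22.0% higher and 7.42% lower. Of the 5038 genes called, 3770 were higher and 1268 lower, a split that depends on scaling: with the median of ratios 2702 were higher and 2099 lower. Here 6 neighbours rose and 6 fell, and 7 did not pass; 8 fell with the median of ratios. The median difference of the 19 was -0.57 for A2ko, -0.18 for A8ko and -0.12 for C9ko.

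The neighbours on either side of the SPRR genes did not move as 1 block. IVL, which encodes involucrin, a scaffold of the envelope, lies next to the cluster on the side of SPRR5 and was at 1.96 to 2.08 TPM across Control, 0.601 for A2ko, 0.227 for A8ko, and 0.358 and 0.151 for the C9ko pair. On the other side the alarmin genes S100A8 and S100A9, which encode the subunits of calprotectin, rose in C9ko. S100A9 went from a mean of 491 ± 21.7 TPM in Control (SD, n = 3) to 2406 and 2349 in C9ko, a log2 difference of 2.27 (SE 0.07, limma adjusted p 8.92e-06), with 712 TPM in A2ko and 871 in A8ko. S100A8 went from a mean of 229 ± 23.8 TPM (SD, n = 3) to 1025 and 1051, a log2 difference of 2.18 (SE 0.09, limma adjusted p 2.31e-05), with 143 TPM in A2ko and 458 in A8ko. S100A7 (psoriasin), S100A7A and S100A12 rose in C9ko as well, by 2.76, 2.38 and 2.12 log2 units (limma adjusted p 0.000281, 4.78e-05 and 0.000819).

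Beyond them, S100A14 was lower in every knockout library, at 287 ± 15.8 TPM in Control (SD, n = 3), 91.3 for A2ko, 80.7 for A8ko, and 77.4 and 82.5 for the C9ko pair (C9ko log2 difference -1.83, limma adjusted p 1.77e-05). PGLYRP3, which lies between the SPRR genes and S100A9, encodes an antibacterial peptidoglycan recognition protein. It averaged 6.21 ± 0.857 TPM in Control (SD, n = 3) and was at 6.14 in A2ko, but at 0.649 in A8ko. The C9ko pair was at 1.66 and 1.61 TPM (log2 difference -1.44, limma adjusted p 0.000363). S100A4 fell in C9ko by 0.93 on the log2 scale (limma adjusted p 0.000222). Only IVL was within 100 kb of SPRR1A among the tested genes that are not SPRR members. The genes between SPRR2E and PGLYRP3 did not reach the minimum level.

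**Figure D4:**
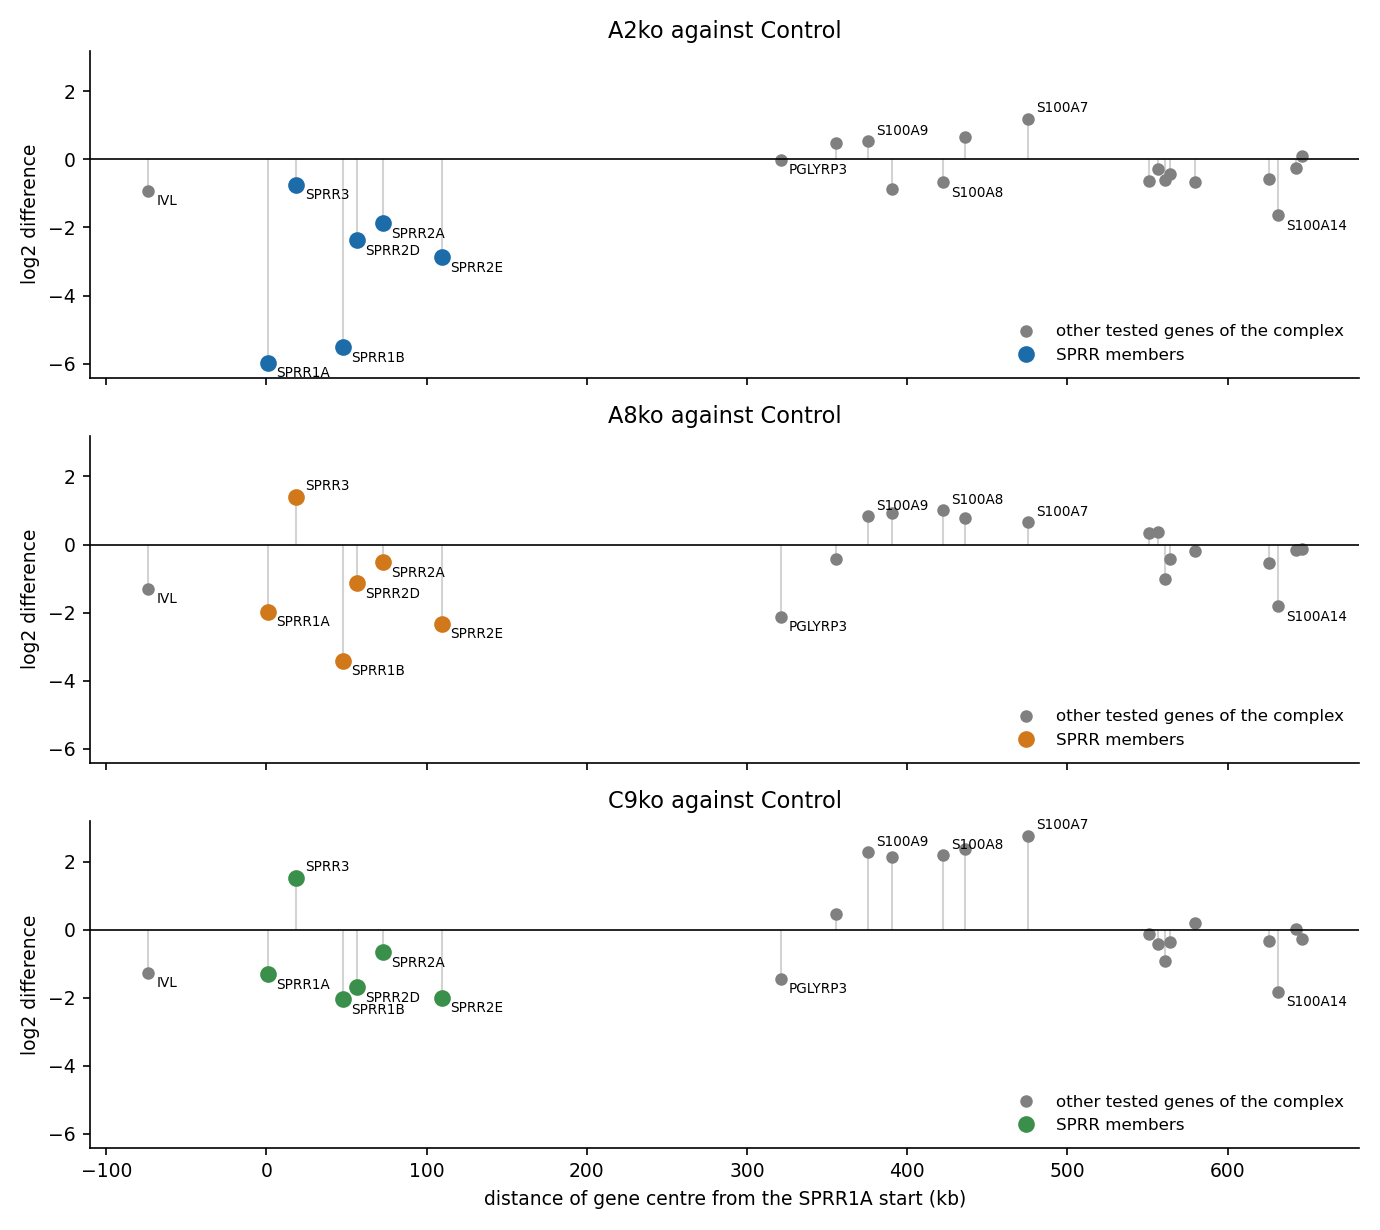
Log2 difference from Control (vertical) of the tested genes of the epidermal differentiation complex against the distance of each gene's centre from the SPRR1A start in kb (horizontal), by knockout group; coloured points are the 6 members. S100A10 and S100A11, far to the left, lie outside the plotted range. The members are mostly negative in all panels, and the S100 genes between 375 and 475 kb are above 2 in C9ko.

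The envelope partners of SPRR proteins were then examined, 26 genes for proteins of the cornified envelope and the keratins of the suprabasal layers; 3 of the tested ones, IVL, S100A10 and S100A11, are also neighbours in the list above. Of the 18 tested, 8 were counted lower in A2ko and 0 higher, where 1.53% and 3.54% of all tested genes were. In A8ko 9 were lower and 1 higher, beside 2.68% and 2.05% of all. In C9ko 12 fell and 1 rose by limma, and 5 did not pass, where 7.42% of all tested genes fell and 22.0% rose. The median difference was -0.83 for A2ko, -1.05 for A8ko and -0.98 for C9ko. PI3, SBSN, KRTDAP, SCEL, KRT1 and KRT4 were lower in all 3 groups.

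PI3 encodes elafin, a protease inhibitor that transglutaminases attach to the envelope. It averaged 94.1 ± 5.00 TPM in Control (SD, n = 3) and was at 9.49 for A2ko, 6.32 for A8ko, and 25.9 and 21.0 for the C9ko pair, a log2 difference of -1.97 in C9ko (SE 0.10, limma adjusted p 4.03e-05). As for SPRR1B and SPRR2E, C9ko kept the most of the 3 groups. SCEL (sciellin, an envelope precursor) averaged 9.27 ± 0.520 TPM in Control (SD, n = 3) and was at 2.13 for A2ko, 1.52 for A8ko, and 1.36 and 1.88 for the C9ko pair (log2 difference -1.97, limma adjusted p 8.93e-05). KRTDAP, a secreted product of differentiating keratinocytes, fell by 3.03 on the log2 scale in C9ko (limma adjusted p 0.000184) and was at 0.462 TPM in A2ko and 0.881 in A8ko against 15.2 ± 2.31 in Control (SD, n = 3).

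The suprabasal keratins differed from the SPRR1 genes in which group was lowest. KRT4, the keratin of mucosal suprabasal layers, averaged 199 ± 2.82 TPM in Control (SD, n = 3) and was at 37.7 in A2ko, but at 0.106 in A8ko, with 1.37 and 0.857 for the C9ko pair. Its partner KRT13 averaged 93.6 ± 4.395 TPM in Control (SD, n = 3) and was at 83.1 for A2ko, 2.23 for A8ko, and 1.68 and 2.50 for the C9ko pair. KRT1 averaged 18.5 ± 1.51 TPM in Control (SD, n = 3) and was at 3.08 in A2ko, with a listed 0 for A8ko and 0.459 and 0.464 for the C9ko pair. Thus A2ko had the least SPRR1A and SPRR1B and the most KRT4, KRT13 and KRT1 of the knockout groups. No test was made between knockout groups, A2ko and A8ko being 1 library each.

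CNFN (cornifelin), another envelope component, was above Control in A8ko and C9ko, as SPRR3 was. It averaged 2.18 ± 0.321 TPM in Control (SD, n = 3) and was at 7.13 in A8ko, with 7.47 and 4.45 for the C9ko pair, a log2 difference of 1.10 in C9ko (SE 0.20, limma adjusted p 0.00679). This call was lost when no filter on low values was applied. In A2ko, however, it was at 3.75 TPM, above Control, where SPRR3 was listed at 0. CSTA (cystatin A) was lower in A2ko, at 32.3 TPM against 77.4 ± 10.4 in Control (SD, n = 3), and its difference of -0.29 in C9ko did not pass (limma adjusted p 0.0944), but did without Control 3.

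Of 11 genes for transglutaminases and proteins that act on them, 9 were tested. In A2ko 1 was counted higher and 0 lower, beside 3.54% and 1.53% of all tested genes, and in A8ko 2 higher and 1 lower, beside 2.05% and 2.68%. In C9ko 5 rose and 1 fell by limma, and 3 did not pass, where 22.0% of all tested genes rose and 7.42% fell. TGM2, the tissue transglutaminase, rose from a mean of 5.54 ± 0.372 TPM in Control (SD, n = 3) to 23.9 and 26.2 in C9ko, a log2 difference of 1.99 (SE 0.09, limma adjusted p 2.58e-05), and was at 18.1 TPM in A8ko and 6.70 in A2ko. TGM1, the membrane-bound enzyme that cross-links SPRR proteins in keratinocytes, is given although the rule for naming genes did not select it: it was at 5.29 to 6.47 TPM across Control, 11.2 in A2ko, 2.46 in A8ko, and 6.34 in each C9ko library. TGM3 was listed at 0 in every library. CST6, an inhibitor of the cathepsins that act on transglutaminases, rose from a mean of 8.25 ± 1.55 TPM (SD, n = 3) to 42.8 and 38.2 in C9ko (log2 difference 2.18, limma adjusted p 9.85e-05), with 16.1 TPM in A2ko and 24.6 in A8ko.

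The smaller changes in this list were less firm. CTSL rose by 0.44 log2 units in C9ko (limma adjusted p 0.0183) and CTSD fell by 0.30 on that scale (limma adjusted p 0.0331). Without C9ko 2 the differences were 0.28 for CTSL and -0.22 for CTSD, and neither call held. The CTSL call was also lost without Control 2 or Control 3 (0.41 and 0.44), and the CTSD call without Control 1 or Control 3 (-0.28 and -0.29). Both were lost without a filter and with the replicate number as a block, and that for CTSD also without the intensity trend in limma. PLAAT4 was lower in A8ko, at 24.5 TPM against 51.6 ± 1.63 in Control (SD, n = 3), and at 59.3 TPM in A2ko. Its difference of 0.22 in C9ko did not pass (limma adjusted p 0.0915), but did without C9ko 1.

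The last list held 42 genes for factors that act on SPRR promoters or on keratinocyte differentiation, of which 38 were tested. In A2ko 1 was counted higher and 2 lower, against 3.54% and 1.53% of all tested genes, and in A8ko 2 higher and 7 lower, against 2.05% and 2.68%. In C9ko 11 rose and 15 fell by limma, and 12 did not pass, against 22.0% of all tested genes higher and 7.42% lower. The median difference was -0.09 for A2ko, -0.16 for A8ko and 0.02 for C9ko, beside 0.12, 0.09 and 0.11 over all tested genes.

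For AP-1, the factor whose motif all 4 printed promoters hold, the subunits did not change alike. FOS averaged 145 ± 3.96 TPM in Control (SD, n = 3) and was at 244 for A2ko, 59.1 for A8ko, and 25.6 and 26.3 for the C9ko pair (C9ko log2 difference -2.44, SE 0.06, limma adjusted p 5.70e-06). FOSL1, the Fra-1 subunit, averaged 74.6 ± 2.61 TPM in Control (SD, n = 3) and was at 38.9 for A2ko, 256 for A8ko, and 182 and 183 for the C9ko pair (log2 difference 1.28, SE 0.06, limma adjusted p 3.33e-05). Like SPRR3, FOSL1 was below every Control library in A2ko and above them in A8ko and C9ko. FOS was above them in A2ko, where all 6 members were lowest, and below in A8ko and C9ko. FOSB fell in C9ko by 1.71 on the log2 scale (limma adjusted p 3.49e-05). JUN and JUNB are given although the rule for naming genes did not select them. JUN was at 22.4 to 27.0 TPM across Control, 26.4 for A2ko, 64.9 for A8ko, and 56.3 and 55.7 for the C9ko pair. JUNB was at 271 to 298 TPM across Control, 302 for A2ko, 255 for A8ko, and 189 and 203 for the C9ko pair.

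Among the other factors, ELF3, the epithelial ETS factor known to act on SPRR promoters, averaged 173 ± 9.94 TPM in Control (SD, n = 3) and was at 210.2 for A2ko, 54.9 for A8ko, and 90.3 and 93.0 for the C9ko pair (log2 difference -0.91, SE 0.07, limma adjusted p 0.000189). ZNF750, a driver of late keratinocyte differentiation, averaged 14.2 ± 0.256 TPM in Control (SD, n = 3) and was at 8.82 for A2ko, 1.46 for A8ko, and 4.69 and 4.31 for the C9ko pair (log2 difference -1.47, limma adjusted p 6.14e-05). NOTCH3 averaged 60.1 ± 4.31 TPM in Control (SD, n = 3) and was at 68.8 for A2ko, 17.9 for A8ko, and 28.7 and 30.3 for the C9ko pair (log2 difference -0.99985, limma adjusted p 0.000206). ELF3, ZNF750 and NOTCH3 were lowest in A8ko, whereas the 6 members were lowest in A2ko. Other ETS factors of the list are given although the rule for naming genes did not select them. EHF was at 175 to 192 TPM across Control, 120 for A2ko, 257 for A8ko, and 251 and 276 for the C9ko pair. For ETS2 these were 50.3 to 58.8, 51.1, 93.7, and 97.9 and 98.7. ETS1 was above every Control library in each knockout group. ELF1 was above them in C9ko and below in A8ko.

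SOX2, a factor of the basal squamous lineage, was lower in every knockout library, at 10.2 ± 0.313 TPM in Control (SD, n = 3), 0.404 for A2ko, 0.483 for A8ko, and 0.319 and 0.150 for the C9ko pair. Among the factors tested it alone was lower in all 3 groups by at least 1 log2 unit. CEBPA fell in C9ko by 1.39 on the log2 scale (limma adjusted p 0.000156). In A2ko and A8ko it was at 8.79 and 7.61 TPM against 10.9 ± 1.04 in Control (SD, n = 3).

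**Figure D5:**
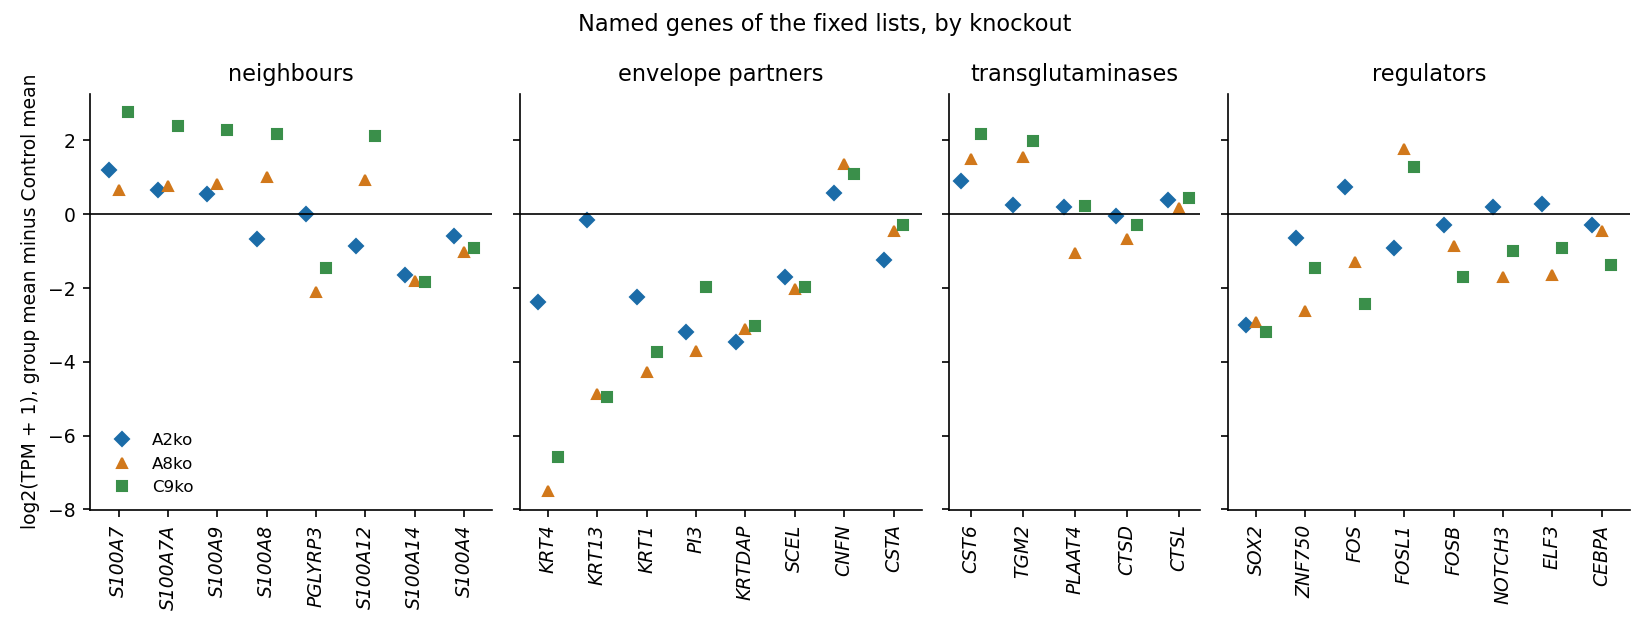
Log2 difference from Control, by knockout group, of the genes that the naming rule selected from the 4 lists with tested genes (diamond A2ko, triangle A8ko, square the C9ko mean). The envelope partners are mostly below 0 in all groups, and FOS and FOSL1 lie on opposite sides of 0 within each group.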

How the data were processed

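RNA was measured in 9 CAL27 samples. Per the labels, polyA RNA was taken with TRIzol and libraries were made by the dUTP method, and the submitters' processing notes name the genome build hg38. The aligner, quantification tool, annotation release and use of strand are not given in the sources used here. The authors deposited TPM per Ensembl gene identifier. TPM keeps no depth, so no counting interval is given.

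Symbols were matched for 61463 of 78894 identifiers. Values were analysed as log2(TPM + 1) for the 17100 genes with at least 1 TPM in at least 2 of 7 distinct libraries. For C9ko, limma 3.58.1 (R 4.3.3) fitted all 4 groups (contrast against Control, eBayes with trend, Benjamini-Hochberg adjustment over all tested genes, threshold 0.05), after a check on simulated data. A2ko and A8ko, with 1 distinct library each, were described without a test. The planned reading of protein sequences was not made, because no protein table was used here.

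The members and lists were chosen with earlier results of these data known. Named list genes were those called in C9ko or counted in A2ko or A8ko with a mean of at least 5 TPM in a group, at most 8 per list by largest difference, and for likeness the 3 nearest genes per member. IVL, TGM1, JUN, JUNB, EHF, ETS1, ETS2 and ELF1 were added after their values were seen. Alternatives varied the pseudocount, scaling, filter, libraries, trend and replicate block.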

Additional observations from a re-analysis of the deposited data

Results flagged for a closer look

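In these results at least 1 knockout group lay above every Control library and another below every Control library. The difference between the knockout groups was not tested. The number given is the distance between the highest and the lowest knockout group in log2(TPM + 1).

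SPRR3 differed by 2.27, with A2ko below Control and A8ko and C9ko above. The genes nearest to it in profile were picked for that likeness, so their like pattern follows from the choice. ADAMTS1 differed by 2.06, KLRC2 by 2.45 and CDC42EP1 by 2.27. Among the neighbours, S100A8 differed by 2.85 and S100A12 by 2.98, both with A2ko lowest and C9ko highest. FOSL1 differed by 2.69, with A2ko lowest and A8ko highest. FOS differed by 3.19, with A2ko highest and C9ko lowest. ELF3 differed by 1.92 and NOTCH3 by 1.88, with A2ko highest and A8ko lowest. PLAAT4 differed by 1.27, with C9ko highest and A8ko lowest.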

How the results depend on the processing

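The sign of the difference of each of the 6 members in each knockout group was the same under every alternative run. A pseudocount of 0.1 moved scarce members most: SPRR2A in A2ko to -4.78, SPRR2D to -4.50, SPRR2E to -4.79 and SPRR3 to -2.91. The difference of the summed family stayed negative in all groups (-5.83 for A2ko, -2.59 for A8ko and -1.71 for C9ko as reported). In A2ko it was -6.04 with a pseudocount of 0.1, -5.94 with 0.5, -5.98 with scaling to the median of ratios, and -5.87 without mitochondrially encoded genes. In A8ko it was -2.68 and -2.67 under the last pair of settings, and in C9ko -1.83 and -1.81.

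A pseudocount of 0.1 raised the genes counted to 1813 for A2ko, 1689 for A8ko and 1638 for C9ko (867, 809 and 874 with 1), and those higher in all groups to 121 (50 with 0.5). It raised the neighbours counted to 4 in A2ko (4 with 0.5) and 7 in A8ko. In C9ko limma called 5038 genes, 3770 higher and 1268 lower. With TPM rescaled by the median of ratios, 2099 were lower of 4801 called, and 3969 of the calls were the same genes. Leaving C9ko with 1 library assumes that it varies as Control does. Counting all 9 files gave 8166 (5940 higher and 2226 lower). Leaving out 1 library at a time gave 3301 (without C9ko 2) to 4174 calls, with 2269 (without C9ko 2) to 3181 higher and 819 (without C9ko 1) to 1037 lower. With the replicate number as a block, 3246 genes were called (2414 higher and 832 lower). Only 2 numbers are shared by Control and C9ko, and the deviations of same-numbered libraries correlated at -0.0529 and -0.0124 across genes, so the numbers do not show a pairing. Of the transglutaminase list, 3 were called in C9ko without a filter, where more genes were tested, and 0 were counted in A2ko with a mean of at least 5 TPM. Without 1 library the count in A2ko was 1 to 2. Among list genes selected by the rule for naming, the calls for CNFN, CTSL and CTSD were lost without a filter. Those for CTSL and CTSD were lost under the replicate block, and that for CTSD without the intensity trend. Where no cause is named, the cause was not tested.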
